A study of Mus musculus with 32 samples.

Results

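The interferon response genes described here are 41 genes listed by symbol for their known place in the interferon response, out of 41585 gene entries in each of the raw count tables, and all 41 were found in both tables. By role they are 19 antiviral effectors, 5 sensors of foreign nucleic acid, 4 transcription factors, 9 guanylate-binding proteins and immunity-related GTPases, and 4 genes of antigen processing. Liver RNA-seq was done on WT and Cyp2b-null mice of both sexes, fed normal chow (ND) or a CDAHFD, a high-fat diet without choline and with defined amino acids that causes steatosis and liver inflammation. The 8 groups of diet, genotype and sex had 4 libraries each, 32 in all. Every mouse was labelled C57BL/6 (C57Bl/6J background in the study's methods) and 10 weeks of age when the 8 weeks of feeding began, and the CDAHFD held 62% fat and 0.1% methionine. Cyp2b-null mice lack Cyp2b9, Cyp2b10 and Cyp2b13 after CRISPR/Cas9 deletion, whereas the WT mice were purchased, so genotype and source of the mice cannot be told apart. The comparisons ask how a CDAHFD changed these genes in each genotype and sex, and whether loss of the Cyp2b genes changed their levels on either diet.

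Interferons are cytokines that cells release when they sense foreign or misplaced nucleic acid. Type I interferons act through the receptor chains Ifnar1 and Ifnar2 and activate a factor, with Stat2 and Irf9 among its parts, that binds interferon-stimulated response elements, whereas interferon gamma acts through Ifngr1 and Ifngr2. In the liver, hepatocytes, Kupffer cells, endothelial cells and infiltrating leukocytes can all respond, a bulk library sums them, and fewer cells of a type and less RNA per cell cannot be told apart.

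Promoter sequences are shown because the response element by which many of these genes are regulated can be read in them. RefSeq start sites on GRCm38.p6 were given for 29 of the 41 genes. The letters GAAANNGAAA, a core of the interferon-stimulated response element, were searched on both strands in the 250 bases before the start. They stood in 14 of 29 promoters (48.3%), against 936 of 27025 promoters of all genes (3.46%). The letters TTCNNNGAA, a core of the gamma-activated site that reads the same on both strands, stood in 8 of 29 (27.6%), against 2197 of 27025 (8.13%). In the windows below, written 5′ to 3′ on the strand of the gene and ending at the base before the RefSeq start, capitals mark GAAANNGAAA or its reverse complement TTTCNNTTTC, and matches that overlap run together. Oas1a, Isg15, Ifit1, Gbp3, Gbp2 and Trim30a are shown as genes with a match that were called for diet, Stat2 as one with a match that was not, and Oasl2 as one called without a match. In RefSeq, another transcript of Oas1a, Gbp3 and Oasl2 begins some bases inside the window.
Oas1a (chr5:120907526-120907685, minus strand): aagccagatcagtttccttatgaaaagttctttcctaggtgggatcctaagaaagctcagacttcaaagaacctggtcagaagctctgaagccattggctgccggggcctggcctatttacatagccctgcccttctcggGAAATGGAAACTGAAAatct
Isg15 (chr4:156200819-156200978, minus strand): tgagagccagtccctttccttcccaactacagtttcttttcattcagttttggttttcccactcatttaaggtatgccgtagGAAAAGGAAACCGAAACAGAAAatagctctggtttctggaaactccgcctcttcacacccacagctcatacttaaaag
Ifit1 (chr19:34640729-34640888, plus strand): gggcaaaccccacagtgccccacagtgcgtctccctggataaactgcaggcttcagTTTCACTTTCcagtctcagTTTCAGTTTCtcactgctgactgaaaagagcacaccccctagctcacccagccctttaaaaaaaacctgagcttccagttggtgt
Gbp3 (chr3:142559884-142560043, plus strand): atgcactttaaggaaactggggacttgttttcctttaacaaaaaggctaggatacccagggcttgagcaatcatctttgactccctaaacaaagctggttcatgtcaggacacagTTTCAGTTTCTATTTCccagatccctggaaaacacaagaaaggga
Gbp2 (chr3:142620503-142620662, plus strand): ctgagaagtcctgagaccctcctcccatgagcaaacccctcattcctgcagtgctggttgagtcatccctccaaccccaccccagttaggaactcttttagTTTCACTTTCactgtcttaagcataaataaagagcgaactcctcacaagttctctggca
Trim30a (chr7:104465194-104465353, minus strand): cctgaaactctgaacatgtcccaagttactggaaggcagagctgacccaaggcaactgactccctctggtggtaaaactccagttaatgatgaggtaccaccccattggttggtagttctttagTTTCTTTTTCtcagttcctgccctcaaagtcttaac
Stat2 (chr10:128270248-128270497, plus strand): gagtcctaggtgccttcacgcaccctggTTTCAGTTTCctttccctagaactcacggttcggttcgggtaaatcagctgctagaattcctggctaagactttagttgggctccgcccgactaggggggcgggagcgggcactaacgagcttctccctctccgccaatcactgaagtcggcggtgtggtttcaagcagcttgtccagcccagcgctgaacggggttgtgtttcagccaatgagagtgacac
Oasl2 (chr5:114896774-114896933, plus strand): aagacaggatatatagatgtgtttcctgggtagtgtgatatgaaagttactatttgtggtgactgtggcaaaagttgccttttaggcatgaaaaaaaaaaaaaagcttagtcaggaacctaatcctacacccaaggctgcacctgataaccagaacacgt
Read against the diet results given below, 6 of the 13 tested genes with GAAANNGAAA were higher on a CDAHFD in at least 3 of the 4 diet comparisons and 4 (Bst2, Gbp7, Irgm2 and Stat2) in none. Of the 15 tested genes without these letters, 9 were higher in at least 3 comparisons and 2 (Irf1 and Irf9) in none. The letters describe a window of sequence and say nothing of binding.

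Libraries had 2906411 to 10166959 counts on genes. Levels are given as CPM, counts scaled to a common library size with TMM factors of each sex, and a floor of 3 counts lay between 0.247 and 1.17 CPM, which covers counting error only. Changes are log2 fold changes with their standard error (SE) from edgeR's quasi-likelihood test, and a gene was called when its Benjamini-Hochberg adjusted p over the whole table was under 0.05. After a filter on low counts, 40 of the 41 genes were tested in each sex on 16 libraries. Igtp, an immunity-related GTPase, did not pass, with 1 to 15 counts per library. The labels do not say more of how the 4 libraries of a group arose, so p-values measure the spread between these libraries. Of the deleted genes, Cyp2b9 had 683 to 3530 counts in WT females and 2 to 8 in Cyp2b-null females. In males Cyp2b9 told the genotypes apart on a CDAHFD, where WT mice had 118 to 364 counts and Cyp2b-null mice 2 to 7, but not on ND, at 0 to 15 and 4 to 18. Cyp2b10 told them apart on ND, at 33 to 97 and 1 to 9 counts, but not on a CDAHFD, at 0 to 7 and 0 to 6. The CDAHFD-fed Cyp2b-null female replicate 3 stood apart in its group, as the highest of the 4 in 16 and the lowest in 17 of the 40 genes, and some results are also given without it. No gene called for diet in Cyp2b-null females lost its call without this library.

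A CDAHFD raised many of the interferon response genes in both genotypes and both sexes. In WT females 19 of the 40 tested genes were called, and all 19 were higher on a CDAHFD, where 13.9% of all genes tested were called higher and 10.2% lower. Cyp2b-null females had 31 genes called higher (16.9% of all genes higher, 13.9% lower), WT males 25 (18% and 15%) and Cyp2b-null males 22 (20.3% and 17.1%). Iigp1 in Cyp2b-null males was the single gene called lower in the 4 comparisons. The median log2 change of the 40 genes was 0.62 in WT females, 1.10 in Cyp2b-null females, 0.71 in WT males and 0.78 in Cyp2b-null males, while that of all genes tested was -0.0021, 0.0273, -0.0228 and -0.0083. For 16, 30, 20 and 23 genes in this order, the 4 CDAHFD-fed libraries did not overlap the 4 ND-fed libraries, which held for 25.8%, 30.6%, 28.4% and 36.8% of all genes, and 24.1%, 30.8%, 33% and 37.4% of all genes were called in either direction. Without the CDAHFD-fed Cyp2b-null female replicate 3, 33 genes were called in Cyp2b-null females, with Irf1 and Gbp7 added.

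**Figure D1:**
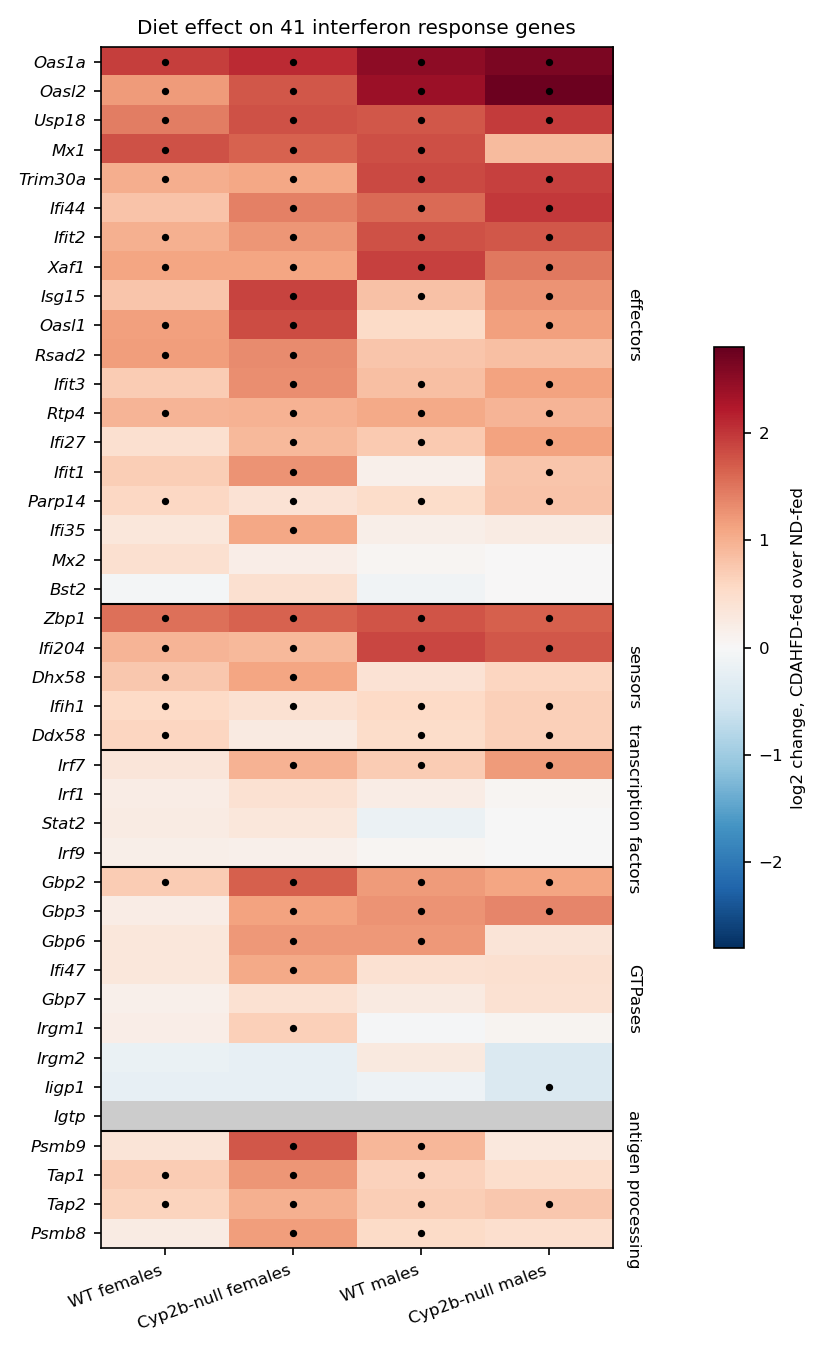
Log2 change on a CDAHFD over an ND (color) for the 41 genes (one line each, grouped by role) in WT and Cyp2b-null females and males (columns). Dots mark called genes and gray marks Igtp, which was not tested. Oas1a, Oasl2, Usp18 and Zbp1 were called in every column, and Irf1, Irf9, Stat2, Mx2 and Bst2 in none.

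Most calls recurred across groups. Ifit2, Usp18, Oas1a, Oasl2, Rtp4, Xaf1, Parp14, Trim30a, Ifih1, Zbp1, Ifi204, Gbp2 and Tap2, 13 genes, were called higher in all 4 diet comparisons. A further 10 genes were called higher in 3 comparisons, 6 in 2, 3 in 1 and 9, Igtp among them, in none. Of the 19 genes called in WT females, 18 were called in Cyp2b-null females (94.7% of the 19 and 58.1% of the 31), Ddx58 being the exception. Of the 25 genes called in WT males, 20 were called higher in Cyp2b-null males (80% of the 25 and 90.9% of the 22). When each of the 8 libraries compared was left out in turn, 80 of the 98 calls were kept every time, and the libraries behind the other 18 are named where the genes are described.

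Among the antiviral effectors, 11 of 19 rose in WT females, 17 in Cyp2b-null females, 13 in WT males and 14 in Cyp2b-null males, with median log2 changes of 0.96, 1.26, 0.85 and 1.12. Oas1a, an oligoadenylate synthetase whose product activates RNase L, had the largest log2 change of the 40 genes in WT mice of either sex. In ND-fed WT females the libraries had 2.40, 3.12, 3.73 and 6.93 CPM of Oas1a, and in CDAHFD-fed WT females 11.2, 19.2, 12.9 and 21.9 CPM. In ND-fed WT males they had 4.34, 2.44, 1.89 and 1.502 CPM, and in CDAHFD-fed WT males 12.3, 13.9, 16.9 and 14.9 CPM. Every CDAHFD-fed library was above every ND-fed library of its sex. The diets separated in Cyp2b-null mice as well, at 3.12 to 5.77 CPM on ND and 16.1 to 26.3 CPM on a CDAHFD in females, and at 2.01 to 3.31 and 13.9 to 17.4 CPM in males. The log2 change of Oas1a was 1.94 ± 0.31 in WT females (3.85-fold, adjusted p = 7.89e-05), 2.08 ± 0.30 in Cyp2b-null females, 2.51 ± 0.25 in WT males and 2.64 ± 0.24 in Cyp2b-null males (6.25-fold, adjusted p = 4.36e-08).

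Mx1, an antiviral GTPase whose gene is defective in many laboratory mouse strains, was low throughout. Its libraries had 0.8001, 1.17, 2.71 and 0.866 CPM in ND-fed and 2.90, 4.37, 2.87 and 7.25 CPM in CDAHFD-fed WT females. They had 0.362, 0.163, 0.673 and 1.07 CPM in ND-fed and 0.746, 1.84, 3.11 and 1.92 CPM in CDAHFD-fed WT males. The diets did not overlap in WT females and did in WT males. Cyp2b-null females had 0.780 to 1.86 CPM on ND and 3.95 to 5.97 CPM on a CDAHFD, and Cyp2b-null males 0.436 to 1.34 and 1.21 to 2.14 CPM. The log2 change was 1.79 ± 0.42 (adjusted p = 0.00356) in WT females, 1.66 ± 0.40 (adjusted p = 0.00362) in Cyp2b-null females and 1.80 ± 0.52 (adjusted p = 0.0103) in WT males. In Cyp2b-null males it was 0.88 ± 0.47 and was not called (adjusted p = 0.158). The ND-fed WT males had 1 to 5 counts of Mx1, about the floor, and the WT male call was lost without CDAHFD-fed replicate 3 (adjusted p = 0.0696).

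Other effectors, chosen after their values were seen, show how the group varied. Oasl2, an oligoadenylate synthetase-like protein, had 4.05, 1.34, 2.48 and 0.654 CPM in ND-fed and 14.4, 13.9, 21.6 and 12.5 CPM in CDAHFD-fed Cyp2b-null males, which did not overlap. It rose by 1.19 ± 0.25, 1.75 ± 0.26, 2.40 ± 0.34 and 2.73 ± 0.33 on the log2 scale in WT females, Cyp2b-null females, WT males and Cyp2b-null males. Usp18, the protease that removes Isg15 from proteins and damps receptor signalling, rose by 1.43 ± 0.23, 1.79 ± 0.23, 1.73 ± 0.22 and 1.95 ± 0.21 in the same order, and Trim30a by 1.02, 1.09, 1.84 and 1.92. Xaf1, a pro-apoptotic factor, rose by 1.10 to 1.92, from only 2 to 14 counts per library in ND-fed WT males.

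Isg15, a ubiquitin-like modifier that is joined to proteins, had 6.80, 10.9, 11.2 and 11.4 CPM in ND-fed and 10.5, 16.7, 12.1 and 27.9 CPM in CDAHFD-fed WT females. In Cyp2b-null females it had 7.28, 5.81, 6.24 and 9.79 CPM on ND and 19.99, 26.0, 40.4 and 23.3 CPM on a CDAHFD. The diets overlapped in WT females and not in Cyp2b-null females. Its log2 change of 0.77 ± 0.29 in WT females was not called (adjusted p = 0.0621), and that of 1.88 ± 0.29 in Cyp2b-null females was (adjusted p = 6.09e-05). Without the CDAHFD-fed Cyp2b-null female replicate 3, which held the highest value, Isg15 stayed called at 1.64 (adjusted p = 0.000256). In WT males Isg15 was called at 0.81 ± 0.30, a call lost without ND-fed replicate 2, 3 or 4 or CDAHFD-fed replicate 2 or 3 (adjusted p up to 0.148), and in Cyp2b-null males at 1.25 ± 0.30.

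Ifit1, Ifit2 and Ifit3, which bind viral RNA and translation factors, lie together on chromosome 19. Ifit2 rose in all 4 comparisons, by 1.001, 1.23, 1.78 and 1.74 on the log2 scale. Ifit3 rose in all but WT females, where it was 0.71 ± 0.27 (adjusted p = 0.0597), and its WT male call of 0.85 was lost without CDAHFD-fed replicate 2 (adjusted p = 0.0702). Ifit1 rose by 1.26 ± 0.26 in Cyp2b-null females and 0.77 ± 0.27 in Cyp2b-null males and was at 0.69 ± 0.26 and 0.15 ± 0.27 in WT females and males. The Cyp2b-null male call of Ifit1 was lost without ND-fed replicate 2, 3 or 4 or CDAHFD-fed replicate 1 or 2 (adjusted p up to 0.0954). Ifit1 can share reads with Ifit1bl1, and Ifit3 with Ifit3b, so their own levels are uncertain.

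Parp14, an ADP-ribosyltransferase, rose by 0.58, 0.41, 0.52 and 0.79 on the log2 scale. Its call was lost in Cyp2b-null females without ND-fed replicate 2 or 4 or CDAHFD-fed replicate 1, 2 or 4 (adjusted p up to 0.128), and in WT males without ND-fed replicate 1 or 3 or CDAHFD-fed replicate 1 or 2 (adjusted p up to 0.144). Ifi35, an inducible protein of signalling complexes, was called in Cyp2b-null females alone, at 1.08 ± 0.20, with 0.31, 0.16 and 0.23 in WT females, WT males and Cyp2b-null males. Mx2 and Bst2, which tethers virus particles to the cell surface, were called in none of the 4 comparisons, with log2 changes of 0.01 to 0.45 and -0.10 to 0.45. Bst2 had 154, 199.6, 333 and 182 CPM in CDAHFD-fed Cyp2b-null females, where replicate 3 was the high one, and without it the change there was 0.17 (adjusted p = 0.299).

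**Figure D2:**
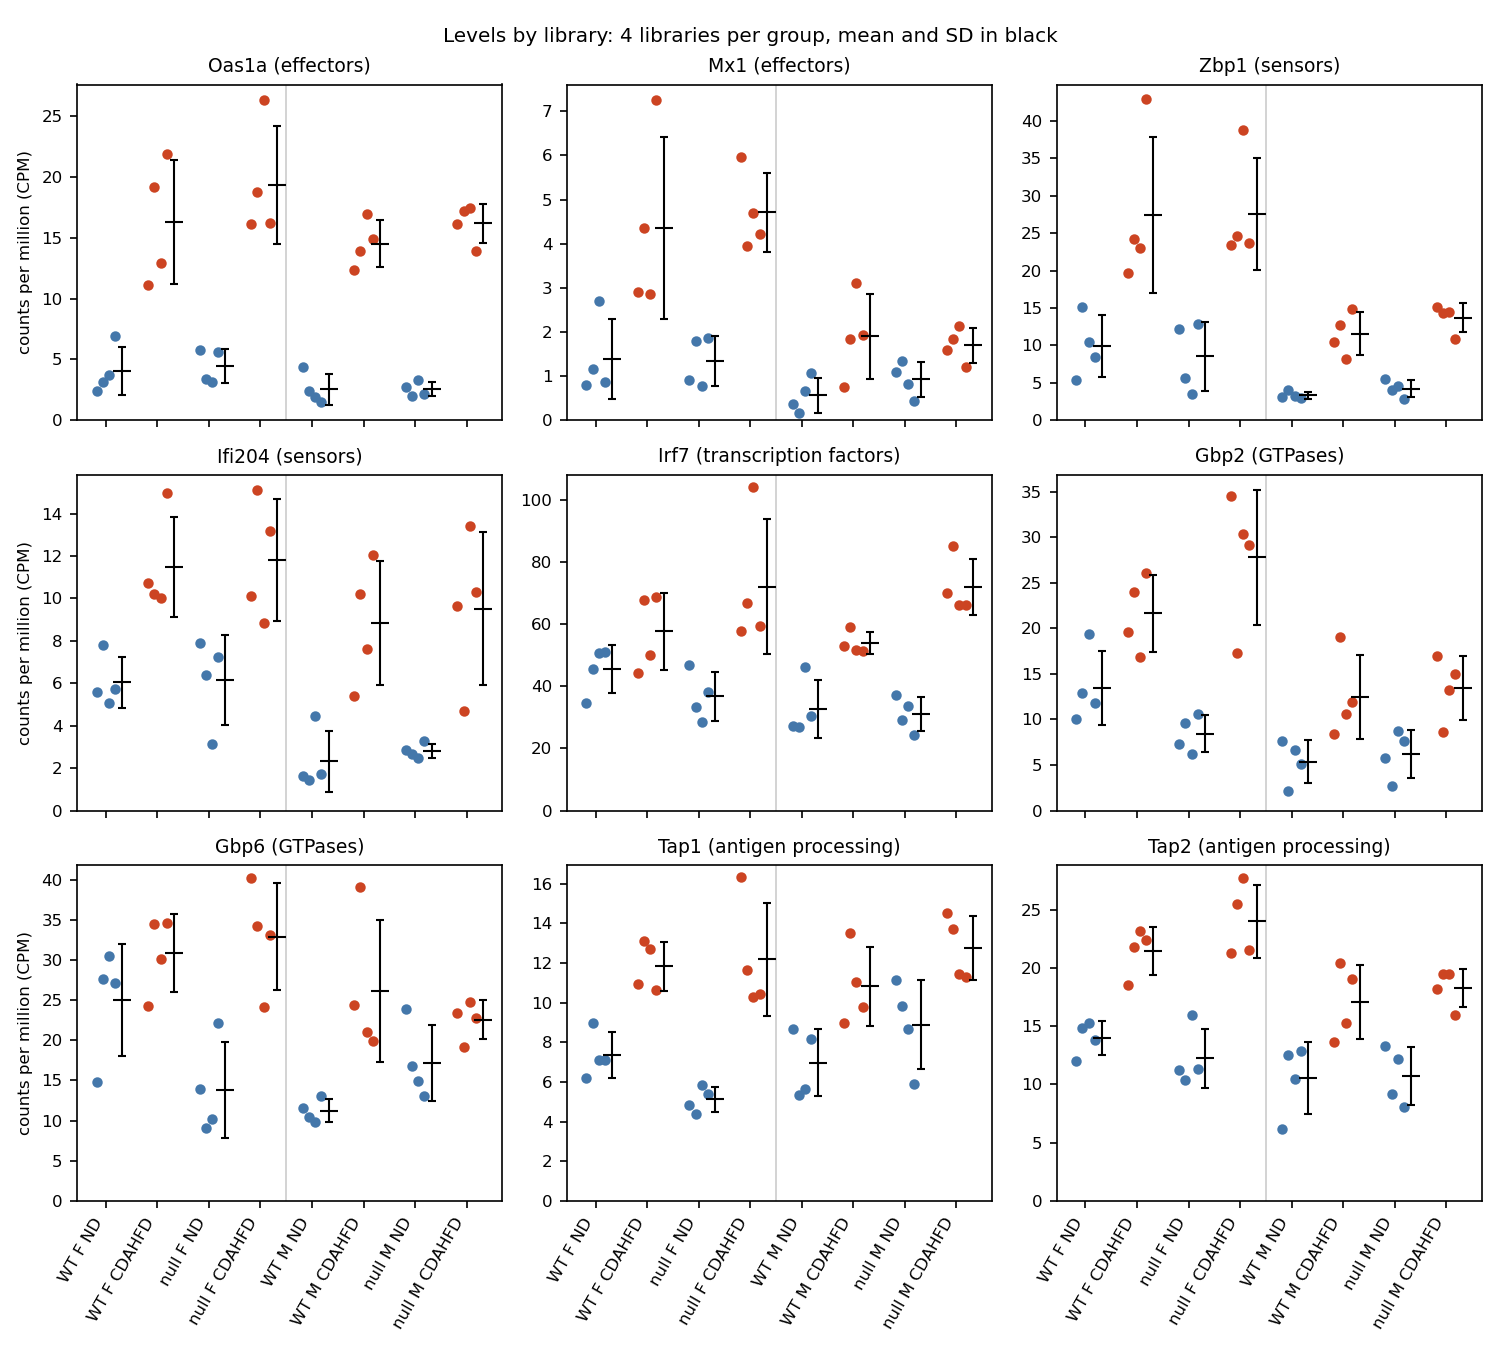
CPM by library (points, 4 per group; blue ND, red CDAHFD) with the mean and SD in black for the 9 genes chosen by role, in WT and Cyp2b-null (null) females (F) and males (M). The CDAHFD-fed libraries of Oas1a and Zbp1 lie above all ND-fed libraries of the same sex and genotype, while those of Irf7 and Gbp6 overlap in WT females.

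Of the 5 sensors, 5 were called higher in WT females and 4 in each of the other comparisons, with median log2 changes of 0.75, 0.90, 0.57 and 0.68. Zbp1 binds Z-form nucleic acid and can trigger necroptosis. Its level was 5.40, 15.2, 10.5 and 8.48 CPM in ND-fed and 19.6, 24.2, 22.96 and 42.9 CPM in CDAHFD-fed WT females. In WT males it was 3.08, 4.06, 3.23 and 3.005 CPM on ND and 10.4, 12.7, 8.18 and 14.9 CPM on a CDAHFD. No CDAHFD-fed library was as low as an ND-fed one of its sex. The diets were also apart in Cyp2b-null mice, at 3.51 to 12.8 against 23.4 to 38.8 CPM in females and 2.83 to 5.47 against 10.9 to 15.2 CPM in males. Its log2 change was 1.55 ± 0.34 (adjusted p = 0.00163) in WT females, 1.64 ± 0.33 in Cyp2b-null females, 1.76 ± 0.24 in WT males and 1.67 ± 0.23 in Cyp2b-null males (adjusted p = 5.58e-06).

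Ifi204, of a family of DNA sensors, had 5.601, 7.79, 5.08 and 5.71 CPM in ND-fed and 10.7, 10.2, 10.04 and 15.0 CPM in CDAHFD-fed WT females. In WT males it had 1.63, 1.46, 4.44 and 1.72 CPM on ND and 5.41, 10.2, 7.60 and 12.1 CPM on a CDAHFD. The diets did not overlap in either sex. Its log2 change was 0.95 ± 0.25 (adjusted p = 0.00754) in WT females and 0.90 ± 0.24 (adjusted p = 0.00763) in Cyp2b-null females. It was 1.86 ± 0.37 (adjusted p = 0.000484) in WT males and 1.75 ± 0.36 (adjusted p = 0.000574) in Cyp2b-null males. Reads of Ifi204 can be shared with near-identical genes of its family, so its level is uncertain.

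The other 3 sensors are RNA helicases. Ifih1, the sensor MDA5 of long double-stranded RNA, rose in all 4 comparisons, by 0.55, 0.44, 0.57 and 0.66 on the log2 scale. These calls were lost without ND-fed WT female replicate 1, without ND-fed Cyp2b-null female replicate 2 or 4 or CDAHFD-fed Cyp2b-null female replicate 1, 2 or 4, and without ND-fed WT male replicate 1 or 3 or CDAHFD-fed WT male replicate 2 (adjusted p up to 0.13). Ddx58, the sensor RIG-I, rose in all but Cyp2b-null females, where it was 0.25 ± 0.14, and its WT male call of 0.51 was lost without ND-fed replicate 1, 3 or 4 or CDAHFD-fed replicate 4 (adjusted p up to 0.0701). Dhx58, a helicase that modulates both, was called at 0.75 ± 0.27 in WT and 1.11 ± 0.27 in Cyp2b-null females and was at 0.40 ± 0.24 and 0.59 ± 0.24 in males, and the difference between the sexes was called in neither genotype. Its WT female call was lost without ND-fed replicate 1, 2 or 3 or CDAHFD-fed replicate 2, 3 or 4 (adjusted p up to 0.184).

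Of the 4 transcription factors, only Irf7 was called in any of the 4 diet comparisons with all libraries. Irf1, Irf9 and Stat2 had log2 changes between -0.17 and 0.43. Irf1 was called in Cyp2b-null females without CDAHFD-fed replicate 3, at 0.54 (adjusted p = 0.01265). Irf7, the factor that amplifies type I interferon production, had 34.6, 45.6, 50.9 and 51.2 CPM in ND-fed and 44.4, 67.9, 50.2 and 68.8 CPM in CDAHFD-fed WT females, which overlapped. It had 27.3, 26.8, 46.3 and 30.5 CPM in ND-fed and 53.2, 59.1, 51.8 and 51.6 CPM in CDAHFD-fed WT males, which did not. In Cyp2b-null mice it had 28.5 to 47.0 CPM on ND and 57.9 to 104 CPM on a CDAHFD in females, and 24.4 to 37.4 and 66.2 to 85.4 CPM in males. Irf7 was not called in WT females, at 0.35 ± 0.20 (adjusted p = 0.238), and rose by 0.97 ± 0.20 (adjusted p = 0.00116) in Cyp2b-null females, 0.71 ± 0.16 (adjusted p = 0.00191) in WT males and 1.20 ± 0.16 (adjusted p = 6.09e-06) in Cyp2b-null males. Without the CDAHFD-fed Cyp2b-null female replicate 3, which held the highest value, the change in Cyp2b-null females was 0.74 and stayed called (adjusted p = 0.0042). Apof overlaps Stat2 in the annotation, which makes the counts of Stat2 uncertain.

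Guanylate-binding proteins and immunity-related GTPases attack the vacuoles of intracellular pathogens. Of the 8 tested, 1 was called higher in WT females, 5 in Cyp2b-null females, 3 in WT males and 2 in Cyp2b-null males. Gbp2 had 10, 12.9, 19.3 and 11.8 CPM in ND-fed and 19.6, 24.0, 16.8 and 26.1 CPM in CDAHFD-fed WT females. It had 7.60, 2.11, 6.60 and 5.15 CPM in ND-fed and 8.40, 19.0, 10.6 and 11.9 CPM in CDAHFD-fed WT males. ND-fed replicate 3 made the diets overlap in WT females, and they did not overlap in WT males. In Cyp2b-null mice Gbp2 had 6.24 to 10.6 against 17.3 to 34.5 CPM in females, with no overlap, and 2.68 to 8.70 against 8.61 to 16.9 CPM in males, with overlap. It rose by 0.71 ± 0.23 (adjusted p = 0.0303) in WT females, 1.66 ± 0.24 (adjusted p = 2.64e-05) in Cyp2b-null females, 1.20 ± 0.35 (adjusted p = 0.0103) in WT males and 1.10 ± 0.34 (adjusted p = 0.0137) in Cyp2b-null males. The WT female call was lost without ND-fed replicate 1, 2 or 4 or CDAHFD-fed replicate 2 or 4 (adjusted p up to 0.11), the WT male call without CDAHFD-fed replicate 2 (adjusted p = 0.0505) and the Cyp2b-null male call without ND-fed replicate 2 (adjusted p = 0.0518).

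Gbp6 had 14.8, 27.7, 30.5 and 27.2 CPM in ND-fed and 24.3, 34.4, 30.1 and 34.6 CPM in CDAHFD-fed WT females. It had 11.6, 10.4, 9.83 and 13.1 CPM in ND-fed and 24.4, 39.1, 21.1 and 19.9 CPM in CDAHFD-fed WT males. The diets overlapped in WT females and were apart in WT males. In Cyp2b-null mice it had 9.01 to 22.1 against 24.2 to 40.2 CPM in females, with no overlap, and 13.1 to 23.9 against 19.2 to 24.8 CPM in males, with overlap. Gbp6 was called in Cyp2b-null females at 1.21 ± 0.25 (adjusted p = 0.00105) and in WT males at 1.22 ± 0.21 (adjusted p = 0.00015), and not in WT females at 0.32 ± 0.24 (adjusted p = 0.38) or Cyp2b-null males at 0.37 ± 0.20 (adjusted p = 0.17). Gbp3 rose in all but WT females, by 1.12, 1.26 and 1.38, and Gbp7 was called in no comparison with all libraries. Gbp7 was called in Cyp2b-null females without CDAHFD-fed replicate 3, at 0.54 (adjusted p = 0.0103).

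Iigp1, an immunity-related GTPase, is given because it was the single gene called lower. It had 329, 325, 346 and 316 CPM in ND-fed and 279, 196, 242 and 272 CPM in CDAHFD-fed Cyp2b-null males. These did not overlap, and the log2 change was -0.41 ± 0.13 (adjusted p = 0.0177). The call was lost without CDAHFD-fed replicate 2 (adjusted p = 0.0743) and with scaling by library size only (adjusted p = 0.769). In WT females, Cyp2b-null females and WT males Iigp1 had log2 changes of -0.24, -0.24 and -0.15, none of them called. Irgm1 and Ifi47 were called in Cyp2b-null females alone, at 0.67 ± 0.18 and 1.05 ± 0.30, and Irgm2 in no comparison.

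Psmb9, Tap1, Psmb8 and Tap2 cut and carry peptides for MHC class I molecules, and they lie side by side on chromosome 17 of GRCm38.p6, from 34182030 to 34216321. Of these 4 genes, 2 rose in WT females, 4 in Cyp2b-null females, 4 in WT males and 1 in Cyp2b-null males. Tap1, which forms the peptide transporter with Tap2, had 6.20, 8.96, 7.12 and 7.10 CPM in ND-fed and 10.9, 13.1, 12.7 and 10.6 CPM in CDAHFD-fed WT females. It had 8.69, 5.37, 5.66 and 8.16 CPM in ND-fed and 8.96, 13.5, 11.1 and 9.79 CPM in CDAHFD-fed WT males. The diets did not overlap in either sex. Its log2 change was 0.71 ± 0.20 (adjusted p = 0.012) in WT females, 1.24 ± 0.20 (adjusted p = 0.000116) in Cyp2b-null females, 0.65 ± 0.22 (adjusted p = 0.0271) in WT males and 0.50 ± 0.21 (adjusted p = 0.0664) in Cyp2b-null males. The WT male call of Tap1 was lost without ND-fed replicate 2 or 3 or CDAHFD-fed replicate 2 or 3 (adjusted p up to 0.0929), and the WT female call without a filter on low counts (adjusted p = 0.0559).

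Tap2 had 12.0, 14.8, 15.2 and 13.8 CPM in ND-fed and 18.5, 21.8, 23.2 and 22.4 CPM in CDAHFD-fed WT females. It had 6.16, 12.5, 10.5 and 12.9 CPM in ND-fed and 13.6, 20.5, 15.3 and 19.1 CPM in CDAHFD-fed WT males. Again the diets were apart in both sexes. Tap2 was called in all 4 comparisons, at 0.63 ± 0.16 and 1.0 ± 0.16 in WT and Cyp2b-null females and 0.70 ± 0.21 and 0.76 ± 0.21 in WT and Cyp2b-null males. Psmb9, an immunoproteasome subunit, had 0.780 to 3.34 CPM in ND-fed and 5.72 to 10.5 CPM in CDAHFD-fed Cyp2b-null females, where it rose by 1.74 ± 0.39 (adjusted p = 0.00196). In WT males Psmb9 was called at 0.94 ± 0.35, lost without ND-fed replicate 1, 2 or 3 or CDAHFD-fed replicate 2, 3 or 4 (adjusted p up to 0.172). Psmb8, another subunit, coded on the far side of Tap1, was called in WT males at 0.54 ± 0.20, lost without ND-fed replicate 2 or 3 or CDAHFD-fed replicate 1, 2 or 4 (adjusted p up to 0.132).

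Levels were compared between genes per length, in CPM per kilobase over the GENCODE vM21 exon union. Bst2 stood first in all 8 groups, from 129 ± 17.8 CPM per kilobase (SD, n = 4) in CDAHFD-fed WT males to 240.5 ± 87.7 in CDAHFD-fed Cyp2b-null females. Iigp1 and Ifi27, a membrane protein of mitochondria and nuclear envelope, held the next places in every group. Bst2, the gene with the highest level, was called in no diet comparison, while Oas1a ranked 31 of 41 in ND-fed WT females at 2.15 ± 1.06 CPM per kilobase and 13 in CDAHFD-fed WT females at 8.64 ± 2.70. Ranks next to each other were not tested for a difference.

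No genotype effect on these genes was called with the filter on low counts. On ND, 0 of 40 genes were called between Cyp2b-null and WT females (0.0756% of all genes) and 0 of 40 between males (0.0371%). On a CDAHFD, 0 were called in females (0.0227%) and 0 in males (0.0297%). By edgeR 6, 2, 3 and 1 of the 40 genes had an unadjusted p under 0.05 in these comparisons. Of all genes tested, 5.75%, 8.26%, 5.83% and 3.62% did. DESeq2 called 0 in each. Without that filter edgeR called 2 genes in ND-fed females, Gbp3 at -0.77 (adjusted p = 0.03575) and Gbp6 at -0.77 (adjusted p = 0.02617). In ND-fed females 31 of 40 genes were lower in Cyp2b-null than in WT mice, with a median log2 difference of -0.22, and the lowest adjusted p was that of Gbp3 at -0.81 ± 0.23 (adjusted p = 0.543). On a CDAHFD the median difference was 0.11 in females and 0.15 in males, with 28 and 35 of 40 genes above 0. Isg15 had the lowest adjusted p in CDAHFD-fed females, at 0.69 ± 0.26 (adjusted p = 0.826), and without the CDAHFD-fed Cyp2b-null female replicate 3 its difference was 0.44 (adjusted p = 0.9999). In ND-fed males Psmb9 was at 1.14 ± 0.35 (adjusted p = 0.319). Missing the threshold does not show that the genotypes were alike.

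**Figure D3:**
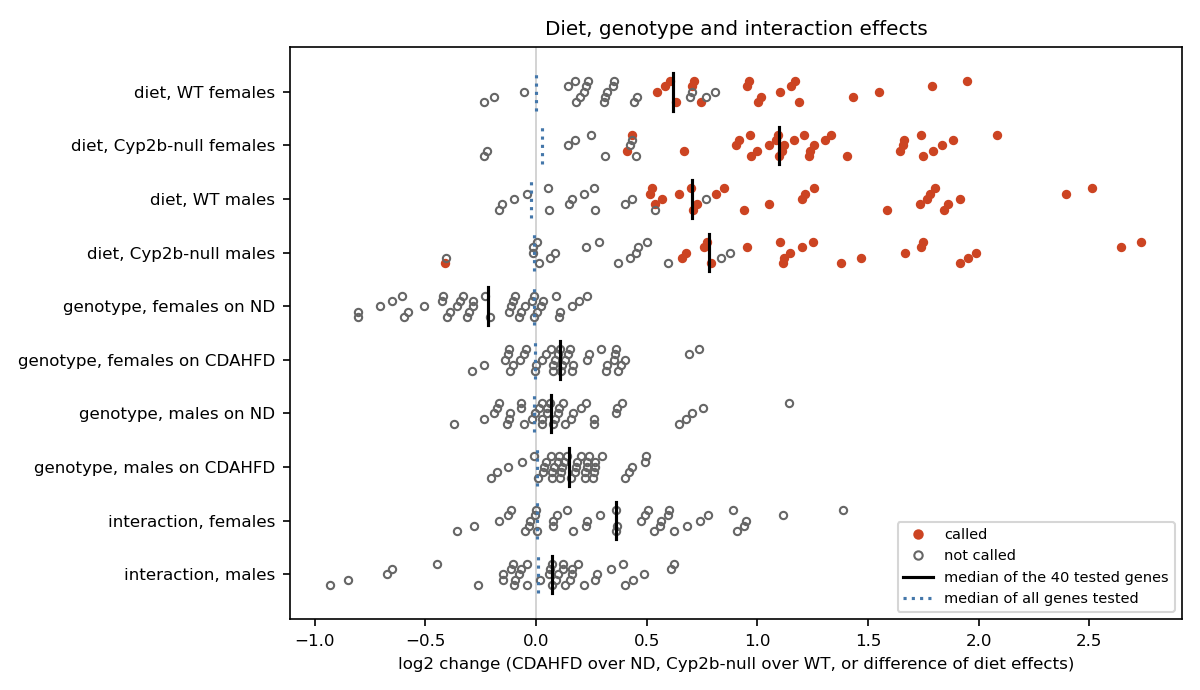
Log2 changes (x axis) of the 40 tested genes in 10 comparisons (one line each), as filled points where called and open points where not, with the median of the 40 genes and that of all genes tested as bars. The diet medians lie between 0.62 and 1.10, and the genotype medians between -0.22 and 0.15 with no called gene.

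The diet effect was compared directly between genotypes and between sexes. For a diet by genotype interaction edgeR called 0 of 40 genes in females (0% of all genes) and 0 in males (0.00743%). At an unadjusted p under 0.05 were 8 and 2 of the 40 genes, and 6.28% and 6.07% of all genes. DESeq2 called 0 in both. In females the diet effect was larger in Cyp2b-null than in WT mice for 31 of 40 genes, by a median of 0.36 on the log2 scale, and the lowest adjusted p was that of Gbp3 at 0.91 ± 0.31 (adjusted p = 0.76). The interaction, both female diet effects and both female genotype effects are drawn from the same 16 libraries. Thus Cyp2b-null females had more genes called for diet than WT females, with no called difference in any single gene. In males Gbp6 had the lowest adjusted p, at -0.85 ± 0.30 (adjusted p = 0.699).

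Between the sexes, a joint fit of the 32 libraries with edgeR called 0 of 40 genes for a different diet effect in WT mice (0.97% of all genes) and 0 in Cyp2b-null mice (3.4%). At an unadjusted p under 0.05 were 4 and 8 of the 40 genes, about the share of all genes, at 10.3% and 19.2%. DESeq2 called 0 in WT and 1 in Cyp2b-null mice, Ifi35, at -0.85 on the log2 scale (adjusted p = 0.0412), where edgeR gave -0.84 ± 0.25 (adjusted p = 0.0595). Gbp3 had the lowest adjusted p in WT mice, with a diet effect larger in males by 1.06 ± 0.34 (adjusted p = 0.159). Without a filter on low counts, edgeR called Gbp3 and Gbp6 in WT mice and Gbp6 and Ifi35 in Cyp2b-null mice. For the genotype effect on a CDAHFD, 0 genes were called between the sexes by edgeR or DESeq2 (0.00713% of all genes by edgeR). By edgeR 0 of the 40 genes had an unadjusted p under 0.05, against 3.13% of all genes.

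Male levels were lower than female levels for some of these genes, a comparison added after the data were seen. The joint fit called 17 of 40 genes lower in males in ND-fed WT mice (9.45% of all genes were called lower), 10 in CDAHFD-fed WT mice (5.12%), 12 in ND-fed Cyp2b-null mice (7.13%) and 12 in CDAHFD-fed Cyp2b-null mice (9.05%). Tap1 in ND-fed Cyp2b-null mice was the single gene called higher in males, at 0.86 ± 0.22 (adjusted p = 0.0072), where 6.13% of all genes were called higher. Rtp4, a receptor chaperone that also restricts viruses, was lower in males in each, with log2 differences of -1.17, -1.06, -0.97 and -0.96 in the same order, and Masp1 overlaps it in the annotation, which makes its counts uncertain. Xaf1 had the lowest log2 difference in ND-fed WT mice, at -2.01 ± 0.39 (adjusted p = 0.000432). The males there had 11, 10, 14 and 2 counts of Xaf1, the last below the floor of 3. Without CDAHFD-fed WT female replicate 2 or 4 the 10 genes became 5, and without male replicate 3 they became 6. Without ND-fed Cyp2b-null female replicate 1 or 4 or male replicate 2 or 4 the 13 called genes of ND-fed Cyp2b-null mice became 4, and without male replicate 3 they became 5. The 12 genes of CDAHFD-fed Cyp2b-null mice became 7 without female replicate 3, 6 lower and 1 higher. Females and males were deposited as separate tables, and sex and table cannot be told apart.

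The 7 interferon transcripts looked at were at or near 0 in these libraries. Other interferon genes were not looked at, and reads shared between such genes may not have been counted. Ifna1, Ifna2, Ifna4, Ifnb1, Ifnl2 and Ifnl3 had 0 counts in all 32 libraries, which allows up to 3 counts per library, and Ifng had at most 2 counts in a library and at least 1 in 9 of 32. Of the 21 receptor and signalling genes, 18 were tested, and a CDAHFD raised 8 and lowered 1 in WT females, raised 8 and lowered 1 in Cyp2b-null females, raised 7 and lowered 3 in WT males and raised 9 and lowered 2 in Cyp2b-null males. Ifngr2, the signalling chain of the interferon gamma receptor, rose by 1.30 ± 0.20, 1.15 ± 0.20, 1.26 ± 0.14 and 1.43 ± 0.14 on the log2 scale in that order. Il10rb, a chain shared by the receptors of interferon lambda and of interleukin-10, rose by 0.92 ± 0.19, 1.08 ± 0.19, 1.99 ± 0.23 and 1.88 ± 0.23. Ifngr1, the ligand-binding chain for interferon gamma, rose by 0.82, 0.51, 1.31 and 0.97. Ifnar1 was called in Cyp2b-null males alone, at 0.47 ± 0.10 (adjusted p = 0.00116).

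Of 36 further interferon-induced genes outside the 41, 35 were tested in females, with 16 called higher in WT and 23 in Cyp2b-null mice. In males 34 were tested, with 18 called higher in WT and 22 in Cyp2b-null mice, and 0 were called lower in any of the 4 comparisons. Of all genes tested, 13.9% were called higher in WT females, 16.9% in Cyp2b-null females, 18% in WT males and 20.3% in Cyp2b-null males. The median log2 changes of the further genes were 0.56, 1.03, 0.67 and 1.10, close to those of the 41. Both lists were chosen with earlier results of these data known, so neither is an independent check of the other. Ly6e, a surface protein that acts on virus entry, rose by 1.31 ± 0.23, 1.67 ± 0.23, 1.95 ± 0.19 and 2.02 ± 0.19, and Lgals3bp, a secreted galectin ligand, by 1.22 ± 0.15, 1.07 ± 0.15, 1.35 ± 0.14 and 1.41 ± 0.14. In a list of 11 class I presentation genes, 3, 8, 3 and 5 were called higher and 0, 0, 0 and 3 lower. In Cyp2b-null males 17.1% of all genes were called lower. The mean sum of the list, in which B2m had the most counts, did not rise in every group. On ND and a CDAHFD it was 3490 and 3476 CPM in WT females and 3003 and 3955 CPM in Cyp2b-null females. For males it was 2439 and 2447 CPM in WT and 2786 and 2447 CPM in Cyp2b-null mice. H2-D1, a class I heavy chain, rose by 0.39, 0.92, 0.76 and 0.77, and Tapbp, which helps load peptides onto class I molecules, by 0.47, 0.45, 0.83 and 0.87.

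Pan-leukocyte, monocyte and macrophage markers moved with diet beside these genes. All 3 pan-leukocyte markers (Ptprc, Laptm5 and Coro1a) were called higher in each of the 4 diet comparisons, with median log2 changes of 1.38, 1.84, 2.86 and 2.94. Their summed level was 25.3 to 33.6 CPM in ND-fed and 70.3 to 90.1 CPM in CDAHFD-fed WT females, and 21.5 to 28.5 and 78.7 to 92.2 CPM in Cyp2b-null females. In males it was 14.5 to 16.4 and 60.7 to 126 CPM in WT mice, and 9.81 to 17.4 and 91.5 to 138 CPM in Cyp2b-null mice. Of 6 monocyte and macrophage markers, the 5 tested were called higher in all 4 comparisons, with a summed level of 14.2 to 48.7 CPM over the ND-fed groups and 87.7 to 221 CPM over the CDAHFD-fed groups, and Trem2 was at 0 counts in every library. Whether Trem2 RNA was absent or its reads were not counted cannot be told here. Hepatocyte markers were called lower for 5, 5, 6 and 4 of 6, with 0 called higher. Mean marker sums of other cell types, which were not tested, did not all rise. Kupffer cell markers were at 363 CPM in ND-fed and 370 CPM in CDAHFD-fed WT females, and 163 and 382 CPM in WT males. Cyp2b-null females had 365 and 457.5 CPM, and Cyp2b-null males 158 and 378 CPM. These sums hide markers that went opposite ways. In WT females Timd4 had 27 to 56 counts per library on ND and 0 to 5 on a CDAHFD. Cd5l had 278 to 732 and 906 to 1187 counts there. In WT males Timd4 had 13 to 34 and 4 to 7 counts, and Cd5l 177 to 696 and 725 to 2323. Sinusoidal endothelial markers were at 204 and 149 CPM in WT females and 158 and 136 CPM in WT males. In Cyp2b-null mice they were at 228.5 and 148 CPM in females and 136 and 157 CPM in males. T and NK cell, stellate cell and cholangiocyte sums rose in all 4. The T and NK cell means were at most 12.0 CPM over 7 genes. Dcn had the most counts of the stellate cell markers. Lrat, another of them, had 39 to 197 counts in ND-fed and 143 to 245 in CDAHFD-fed WT females. Of 3 plasmacytoid dendritic cell markers, which summed to at most 5.18 CPM, 0 were tested in females and 1 in males, where Siglech rose by 2.27 ± 0.56 in WT and 1.70 ± 0.47 in Cyp2b-null mice. Siglech started near the floor of 3 counts, with 0 to 6 in ND-fed WT and 2 to 7 in ND-fed Cyp2b-null males. The part of these markers in the diet effect on the interferon response genes was not tested.

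**Figure D4:**
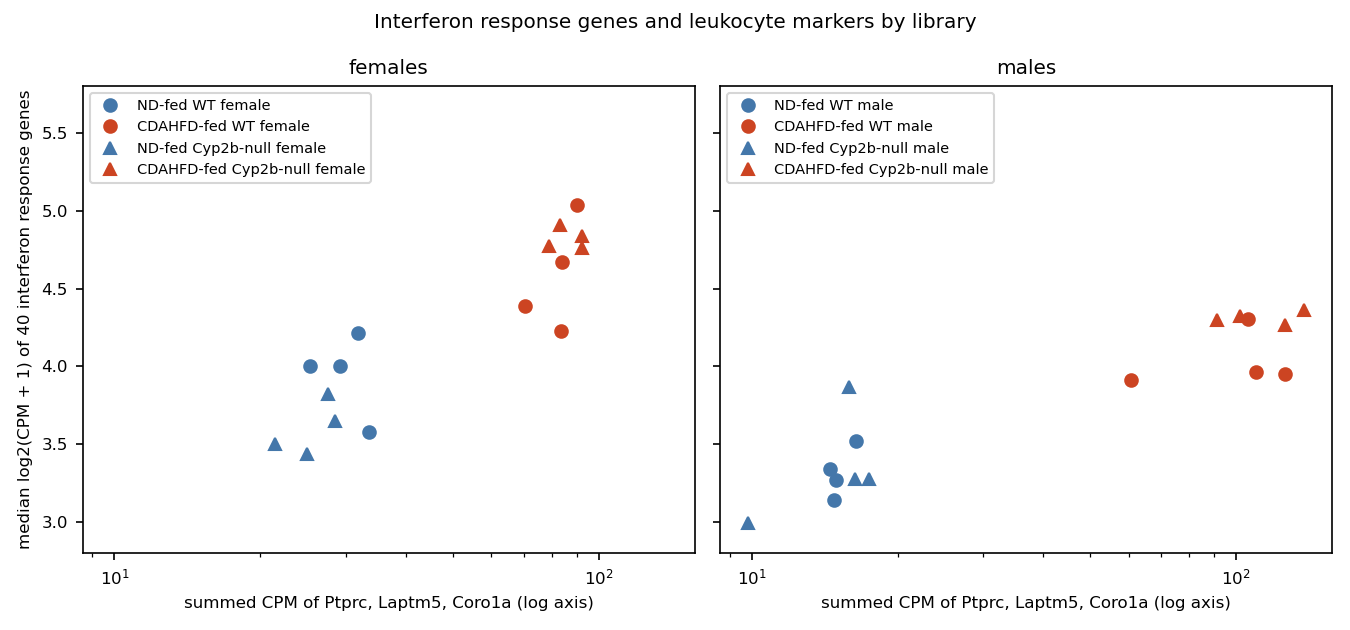
Median log2(CPM + 1) of the 40 tested genes (y axis) against the summed CPM of Ptprc, Laptm5 and Coro1a (x axis, log scale) in each library, females and males in separate panels, ND in blue and CDAHFD in red, WT and Cyp2b-null by symbol. The diets are apart on both axes in each sex, and within CDAHFD-fed males the marker sum ran from 60.7 to 138 CPM and the gene median from 3.92 to 4.36.

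Libraries of a group also differed from each other across the whole set. The median log2(CPM + 1) over the 40 genes ran from 3.58 to 4.21 in ND-fed and 4.23 to 5.04 in CDAHFD-fed WT females, and from 3.44 to 3.83 and 4.76 to 4.91 in Cyp2b-null females. In males it ran from 3.14 to 3.52 and 3.92 to 4.30 in WT mice, and from 2.996 to 3.87 and 4.27 to 4.36 in Cyp2b-null mice. No ND-fed library was as high as a CDAHFD-fed library of its own sex. ND-fed Cyp2b-null male replicate 1 was the highest of its group in 25 of 40 genes and replicate 4 the lowest in 25, and ND-fed WT female replicate 1 was the lowest of its group in 25. CDAHFD-fed WT female replicate 4 was the highest in 24 and replicate 3 the lowest in 23, and CDAHFD-fed WT male replicate 2 was the highest in 23. The 19 genes called for diet in WT females became 16 without ND-fed replicate 1 and 22 without CDAHFD-fed replicate 3.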

How the data were processed

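Raw counts per gene were used as the authors deposited them, in 1 table for females and 1 for males, whole numbers without normalization. Per the study's methods, reads were checked with FastQC, trimmed with Trimmomatic, aligned to GRCm38.p6 with GSNAP and counted on genes with featureCounts of Subread, and the versions, the strand setting and the handling of reads that map more than once are not given in the sources used here. So 12 of the 41 genes, which overlap another gene, and genes with near-identical copies (Ifit1, Ifit3, Oas1a, Trim30a, Gbp6 and Ifi204) have uncertain counts. Of 41585 entries, 27 had symbols turned into dates and 4 were repeated, none of them among the 41, and 0 sample columns were unused. Groups and replicate numbers came from the labels. The 41 genes and the pathway and marker lists were chosen with earlier results of these data known.

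Genes were filtered with filterByExpr (count 10, total 15), scaled by TMM and tested with edgeR's quasi-likelihood test (edgeR 4.0.16, limma 3.58.1, R 4.3.3). The 16 libraries of a sex made 1 fit with contrasts for diet, genotype and their interaction (13226 genes tested in females, 13460 in males), and all 32 made 1 fit for sex differences (14020 genes). Adjustment followed Benjamini-Hochberg over every gene of a fit. Alternatives were RLE factors, library size only, no filter, at least 1 CPM in at least 4 libraries, DESeq2 1.42.0, only the groups compared, the replicate number as a block and each library left out in turn. On simulated data with these depths, the test called 45 of 50 genes raised 2-fold and 31 of 50 lowered to 0.5 of their level in WT females (12998 genes), and 37 and 38 of 50 in WT males (13165 genes), but only 8 and 13 of 50 raised 1.5-fold. The changed genes were drawn from those above a minimum mean count, and far fewer genes changed than were called for diet. These shares need not hold for genes with low counts such as Mx1.

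Genes given in every library were, in each role, the 2 with the largest absolute mean of the WT diet log2 changes of both sexes among those called for diet in WT mice of either sex. Further genes are said to be chosen after their values were seen, or are the ones a count, a lost call or the lowest adjusted p points to. In each pathway list, the 2 of lowest adjusted p for diet in WT males are named, with Ifnar1, Ifngr1 and Ifng. A gene that the rule also names is not reported here. RefSeq promoters and positions are of GRCm38.p6.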

Additional observations from a re-analysis of the deposited data

Results flagged for a closer look

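In 18 of 320 gene and group combinations (5.62%), the highest or lowest of the 4 libraries lay farther from the other 3 than Dixon's 95% critical value allows, and chance alone gives about 1 in 20. By edgeR with the filter on low counts, 0 genes were called for a diet by genotype interaction or for a sex difference of an effect, and DESeq2 called 1, Ifi35, for a sex difference of the diet effect in Cyp2b-null mice (-0.85 on the log2 scale, adjusted p = 0.0412).

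Of these 18, 3 were in the CDAHFD-fed Cyp2b-null female replicate 3, which held 220.6 CPM of Ifi27 (111.6 to 124.3 in the other libraries), 22.2 CPM of the helicase Dhx58 (16.2 to 17.1) and 38.8 CPM of the sensor Zbp1 (23.4 to 24.7). In ND-fed Cyp2b-null male replicate 1, Isg15 was high at 11.0 CPM (3.49 to 4.47) and Dhx58 at 14 CPM (5.82 to 6.98). ND-fed WT male replicate 2 was high in Dhx58 at 11.5 CPM (7.51 to 7.68) and in Stat2 at 60.2 CPM (42.7 to 44.4), and ND-fed Cyp2b-null female replicate 1 in Stat2 at 55.5 CPM (33.5 to 36.6) and in Rtp4 at 20.6 CPM (15.99 to 16.5). Ifi204 was high in CDAHFD-fed WT female replicate 4 at 15.0 CPM (10.0 to 10.7) and in ND-fed WT male replicate 3 at 4.44 CPM (1.46 to 1.72).

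The other high values were 40.9 CPM of Irf9 in ND-fed WT female replicate 2 (32.2 to 32.7), 11.5 CPM of Irgm2 in CDAHFD-fed WT male replicate 2 (4.03 to 5.04), 36.2 CPM of Psmb8 in CDAHFD-fed Cyp2b-null male replicate 1 (24.3 to 25.8) and 15.99 CPM of Tap2 in ND-fed Cyp2b-null female replicate 3 (10.4 to 11.3). Low values were 6.80 CPM of Isg15 in ND-fed WT female replicate 1 (10.9 to 11.4), 15.5 CPM of Usp18 in CDAHFD-fed WT male replicate 1 (24.3 to 25.8) and 48.6 CPM of Stat2 in CDAHFD-fed WT female replicate 3 (61.8 to 62.6).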

How the results depend on the processing

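The count of genes called for diet stayed within 1.5 times the reported one under every alternative run except scaling by library size only in WT females, where 32 genes were called, all higher. That scaling moved the median log2 change of all genes to 0.32, 0.28, 0.37 and 0.36 in WT females, Cyp2b-null females, WT males and Cyp2b-null males, and that of the interferon response genes to 0.94, 1.35, 1.10 and 1.14. Leaving out each library in turn gave 16 to 22 called genes in WT females, 29 to 33 in Cyp2b-null females, 17 to 23 in WT males and 21 to 27 in Cyp2b-null males. Without a filter on low counts, 2 genes were called for genotype on ND in females (Gbp3 at -0.77 and Gbp6 at -0.77), 2 for a sex difference of the diet effect in WT mice (Gbp3 and Gbp6) and 2 in Cyp2b-null mice (Gbp6 and Ifi35), where DESeq2 called 1. With libraries left out, genotype effects and interactions stayed at 0 called genes, the sex difference of the diet effect at 0 to 1 in WT and 0 to 2 in Cyp2b-null mice, and the male minus female levels had 12 to 18, 5 to 12, 4 to 12 and 7 to 11 called genes in ND-fed WT, CDAHFD-fed WT, ND-fed Cyp2b-null and CDAHFD-fed Cyp2b-null mice. No gene called for diet changed sign under an alternative that kept all libraries, whereas among genes not called for diet the change of Bst2, Iigp1, Irf9, Irgm1, Irgm2, Mx2 and Stat2 changed sign in at least 1 comparison, most often with library size only, and that of Irf9 in Cyp2b-null males also with RLE factors and with only the groups compared. The cause of these differences was not tested. A fit of only the groups compared could not be made for the interactions, which use all 4.

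With the replicate number as a block, 20, 30, 25 and 24 genes were called for diet in the same order and 0 for genotype. The numbers mark no stated pairing: deviations of same-numbered libraries correlated at -0.11 to 0.177 in females and -0.185 to 0.292 in males, and 5 of 16 libraries in each sex correlated best with their own number. Depth limits genes such as Mx1, with 1 to 5 counts in ND-fed WT males.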
